A study of Mus musculus with 6 samples.

Results

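Chemical transmission depends on vesicles that are filled, docked and fused at the active zone of the axon terminal. Rab3 GTPases sit on the vesicle membrane and bind RIM scaffolds, Munc13 proteins prepare the fusion machinery, and SNARE proteins of the vesicle and of the plasma membrane zip together to drive fusion, with complexins as clamps and synaptotagmins as calcium sensors. In the arcuate nucleus (ARC) the same machinery, with its dense-core vesicle variants, also releases the neuropeptides that control feeding, growth and reproduction.

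The genes described here are 73 of the 24015 genes in the files. They were taken by symbol, with earlier results of these data known: every numbered synaptotagmin (Syt), synapsin (*Syn1* to *Syn3*), syntaxin (Stx), VAMP, SNAP, Rab3, complexin (Cplx), RIM (Rims), Munc13 (Unc13) and syntaxin-binding protein (Stxbp), together with *Sv2a*, *Sv2b*, *Syp*, *Bsn* and *Pclo*. *Sv2c* was left out by the rule, and Stxbp3a and Stxbp3b do not match its pattern. The symbol pattern for SNAP proteins also takes *Snap91*, a clathrin assembly protein, and *Snap47* and *Snap29*, which are SNAREs of other membranes, and the syntaxin pattern takes syntaxins of endosomes and the Golgi.

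RNA was sequenced from the microdissected ARC of 6 adult female mice, 3 of each genotype. All carried floxed alleles of *Esr1*, the gene for estrogen receptor alpha (ERα), on a mixed background that the labels give as CD-1, 129P2 and C57BL/6 and the methods as CD-1 and 129P2. The 3 controls (Esr1fl/fl) had no Cre, and the 3 mutants (Esr1fl/fl;Nkx2-1-Cre) also carried Cre driven by Nkx2-1, a transcription factor gene of the ventral forebrain, thyroid and lung, so that recombination is limited neither to the ARC nor to 1 kind of neuron. Levels are given as CPM, the counts divided by the library size and set to a common scale after TMM normalization, and folds as log2 of mutant over control from edgeR's quasi-likelihood test, with adjusted p-values taken over all 15236 genes that passed a filter on low counts.

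The samples held between 11792440 and 17877137 counts, at which 3 counts, the floor used here, correspond to between 0.175 and 0.248 CPM. *Esr1*, the deleted gene, was at 64.5, 57.5 and 48.5 CPM in controls and at 11.8, 9.55 and 7.06 CPM in mutants, with a log2 fold change of -2.59 (SE 0.18, adjusted p = 0.000884). Each of 8 ARC neuron markers was detected, and their summed level was between 760 and 820 CPM in controls and between 890 and 1356 CPM in mutants. The list holds *Kiss1* and *Tac2*, which the study counts among the genes changed in these mutants. Mean *Tac2* was 114 CPM in controls and 200 CPM in mutants, and *Cartpt* 206 and 294 CPM. *Cited1* was at 65.9 and 67.0 CPM and *Agrp* at 33.2 and 36.4 CPM. Markers of tissue next to the ARC differed between libraries of 1 genotype: those of the ventromedial nucleus (VMH) summed to between 174 and 418 CPM in controls and between 195 and 644 CPM in mutants, and those of the pituitary to 6.05 CPM in control replicate 2 against 502 CPM or more in the other controls. All 12 tested oligodendrocyte markers had an unadjusted p under 0.05 and were higher in mutants (edgeR's quasi-likelihood test), and 2 of them passed the adjusted threshold. Their sum was between 723 and 1358 CPM in controls and between 1786 and 1922 CPM in mutants. In bulk tissue, fewer cells of a type and less RNA per cell cannot be told apart, and this holds for each level below.

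No gene of the release machinery passed the adjusted threshold of 0.05 with edgeR's quasi-likelihood test, against 18 of all tested genes (0.118%). At an unadjusted p under 0.05, 6 of the 68 tested members were lower in mutants (8.82%, against 4.01% of all tested genes) and 4 were higher (5.88%, against 4.84%). With DESeq2, 2 of 66 members with an adjusted value passed the threshold, *Rab3b* and *Rab3c*, both lower in mutants (3.03%, against 1.27% of all genes). The genes with the smallest p-values among those lower in mutants were these Rab3 isoforms, the synaptotagmin *Syt17*, the endosomal syntaxin *Stx12*, the plasma membrane syntaxin *Stx3* and the vesicle synaptotagmin *Syt5*. Those higher in mutants were *Snap23*, *Vamp5*, *Vamp8* and *Syt15*.

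Of the 68 tested members, 53 had a log2 fold change within 0.25 of 0, and 5 lay beyond 0.5. Among these 5 is *Unc13d*, which passed the filter on low counts through the mutants alone. The share within 0.25 was near that of all tested genes, 74.5%. The median log2 fold change of the members was -0.056, beside 0.0036 for all tested genes, and 42 of the 68 were below 0 (61.8%, against 49.0% of all tested genes). The median rested in part on single libraries, at -0.0057 without control replicate 2, -0.031 without mutant replicate 1 and -0.097 without mutant replicate 2. The summed level of the 73 genes was 13330, 15861 and 15020 CPM in the 3 controls (mean 14737 ± 1289, SD) and 12640, 14998 and 14304 CPM in the 3 mutants (mean 13981 ± 1212). These sums overlapped, and their means were closer together than 1 SD of either group.

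**Figure D1:**
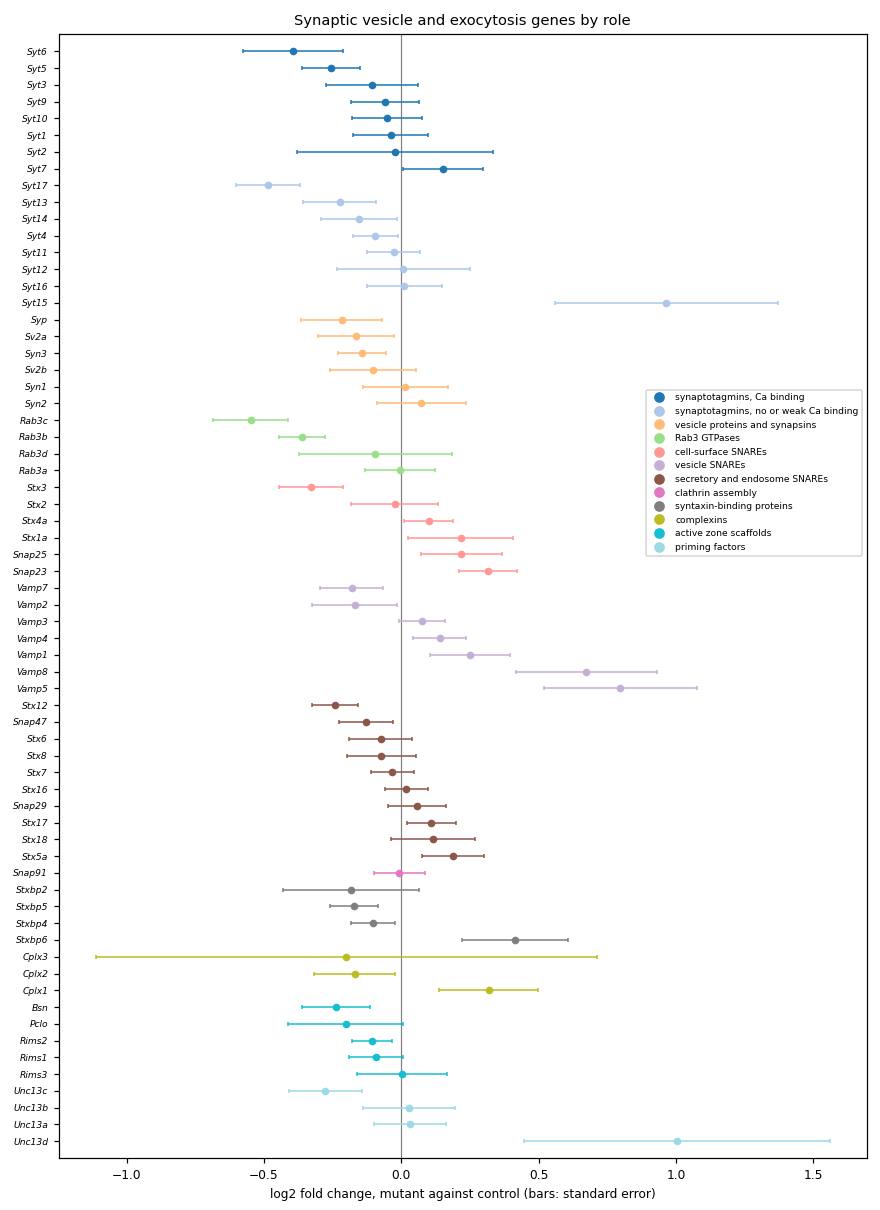
Log2 fold change of mutant against control for 66 of the tested genes, ordered by role (colours), with the standard error from edgeR's quasi-likelihood test as bars. Most points lie within 0.25 of 0, with *Rab3c*, *Syt17*, *Syt6* and *Rab3b* furthest to the left and *Unc13d*, *Syt15*, *Vamp5* and *Vamp8*, all under 10 CPM, furthest to the right. *Unc13d* passed the filter on low counts through the mutants alone.

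The Rab3 GTPases, which cycle on and off the vesicle membrane with GTP hydrolysis and link vesicles to RIM at the release site, include the member with the largest fold among the 24 above 100 CPM in all females, *Rab3c*. It was at 1946, 2087 and 1399 CPM in controls and at 1270, 1261 and 1182 CPM in mutants. The mutants were close to one another and below each control, although control replicate 3 stood nearer to the mutants than to the other controls. The mutant mean was 68.4% of the control mean, a log2 fold change of -0.55 (SE 0.14, adjusted p = 0.226 from edgeR's quasi-likelihood test). DESeq2 gave *Rab3c* an adjusted p of 0.00764. With each sample left out in turn the log2 fold change lay between -0.70 and -0.44. EdgeR's adjusted p was 0.0438 without control replicate 3 and between 0.341 and 0.606 without any 1 of the other samples.

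*Rab3b*, an isoform of neuroendocrine and some central neurons, was at 113, 117 and 114 CPM in controls and at 92.4, 80.9 and 94.1 CPM in mutants. The controls spanned a narrow range and no mutant reached it. The mutant mean was 77.9% of the control mean, with a log2 fold change of -0.36 (SE 0.08) and an adjusted p of 0.172 from edgeR's quasi-likelihood test against 0.0374 from DESeq2. Leaving out 1 sample at a time kept its log2 fold change between -0.40 and -0.30.

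*Rab3a*, the isoform most studied at fast synapses, did not show such a gap. It was at 110, 131 and 121 CPM in controls and 98.2, 140 and 123 CPM in mutants, with the mutant range enclosing that of the controls (adjusted p = 0.996 by edgeR's quasi-likelihood test). *Rab3d*, known from exocrine and mast cell granules, was low, at 5.36, 3.20 and 6.03 CPM in controls and 4.04, 5.65 and 3.86 CPM in mutants, again with overlap. Per kilobase of exon, the mean level over all samples was 171 CPM for *Rab3c*, 54.2 CPM for *Rab3a*, 28.9 CPM for *Rab3b* and 1.12 CPM for *Rab3d*, so *Rab3c* was the main Rab3 transcript of this tissue. The per-kilobase log2 ratio of *Rab3a* to *Rab3c* was -2.14, -1.99 and -1.53 in controls and -1.69, -1.17 and -1.27 in mutants, a mean difference of 0.51 with 1 mutant inside the range of the controls.

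**Figure D2:**
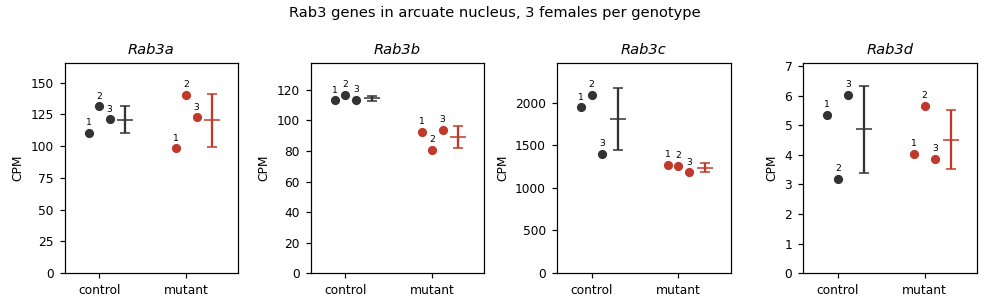
CPM of the 4 Rab3 genes in each female, numbered by replicate, with the mean and SD of each genotype beside the points. All mutants lie below all controls for *Rab3b* and *Rab3c*, and the genotypes overlap for *Rab3a* and *Rab3d*.

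The Rab3 genes lie apart from one another in the genome. In the NCBIM37 assembly with its GENCODE annotation, *Rab3c* spans positions 110844395 to 111071109 of the minus strand of chromosome 13, *Rab3b* positions 108551668 to 108615929 of the plus strand of chromosome 4, and *Rab3a* positions 73278578 to 73282576 of the plus strand of chromosome 8. Their promoters are shown because *Rab3b* and *Rab3c* had the smallest DESeq2 p-values of the machinery while *Rab3a* overlapped between genotypes. The sequences are the 250 bases before a transcription start in RefSeq for GRCm38.p6, on the strand of the gene, at chr13:110280207-110280456 for *Rab3c*, chr4:108878820-108879069 for *Rab3b* and chr8:70754453-70754702 for the first of the listed starts of *Rab3a*, in lower case with GC boxes (GGGCGG or its complement CCGCCC) in capitals:
Rab3c: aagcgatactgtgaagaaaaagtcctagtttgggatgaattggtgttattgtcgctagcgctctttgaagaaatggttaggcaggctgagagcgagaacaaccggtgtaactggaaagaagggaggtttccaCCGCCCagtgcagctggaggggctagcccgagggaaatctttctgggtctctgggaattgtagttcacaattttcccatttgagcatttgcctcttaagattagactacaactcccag
Rab3b: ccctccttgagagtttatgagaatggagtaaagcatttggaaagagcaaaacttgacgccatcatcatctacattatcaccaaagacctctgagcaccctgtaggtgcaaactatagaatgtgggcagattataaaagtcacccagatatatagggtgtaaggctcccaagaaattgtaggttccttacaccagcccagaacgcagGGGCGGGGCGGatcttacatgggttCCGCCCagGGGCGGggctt
Rab3a: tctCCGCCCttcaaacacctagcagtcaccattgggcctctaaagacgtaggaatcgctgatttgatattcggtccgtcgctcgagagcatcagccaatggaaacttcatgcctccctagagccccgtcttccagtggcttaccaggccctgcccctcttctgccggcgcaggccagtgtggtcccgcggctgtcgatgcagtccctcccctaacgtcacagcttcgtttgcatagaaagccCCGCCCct

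The *Rab3b* stretch holds 4 GC boxes close to the start, of which the first pair overlaps by a base, and the only TATAAA among the stretches shown. That of *Rab3c* holds 1 GC box and that of *Rab3a* 2. None of these 250-base stretches holds the half-site of an estrogen response element (GGTCA or its complement TGACC) or a cyclic AMP response element (TGACGTCA). With the 50 bases after a start added, a window of *Rab3a* held the half-site, and those of *Rab3b* and *Rab3c* did not. Windows reaching from 250 bases before to 50 after a start were found for 56 of the 73 members, 72 windows in all. A GC box was present in 65.3% of these windows and in 59.5% of the windows of all tested genes. The estrogen response half-site was present in 33.3% against 37.8%, and no member window held GGTCA and TGACC 3 bases apart in that order, which 0.00693% of the windows of tested genes did. The cyclic AMP response element was present in 1 member window, that of *Syn1* (1.39%, against 2.87% of the windows of tested genes). TATAAA was present in 6.94% of the member windows against 7.59%. These are matches of letters on either strand, and no binding was measured.

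Partners of Rab3 and of its relative Rab27 stand outside the rule. They belong to a list of 93 other release genes (SNARE disassembly, docking and priming, active zone, vesicle membrane, endocytosis, exocyst and other SNAREs), of which 91 were tested. None passed the adjusted threshold with edgeR's quasi-likelihood test, and 3 of the 91 were lower and 2 higher at an unadjusted p under 0.05, both below the shares of all tested genes (4.01% and 4.84%). With DESeq2, 3 passed, where 1.27% of all genes did. The median log2 fold change of the list was -0.040. The genes named next were picked after their values were seen, and 4 of the 5 with an unadjusted p under 0.05 belong to the docking and priming group.

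*Rab27b*, a GTPase of dense-core and secretory granules, was at 75.2, 81.5 and 79.1 CPM in controls and 54.5, 61.4 and 64.6 CPM in mutants, with a log2 fold change of -0.38 (SE 0.09, adjusted p = 0.178 from edgeR's quasi-likelihood test and 0.0486 from DESeq2). *Sytl4*, also named granuphilin, which binds Rab27 and Rab3 on secretory granules, was at 81.5, 98.1 and 71.9 CPM in controls and 46.2, 54.2 and 61.9 CPM in mutants, with a log2 fold change of -0.63 (SE 0.14, adjusted p = 0.155 from edgeR and 0.00472 from DESeq2). *Rph3a*, rabphilin, an effector of Rab3 and Rab27, was at 277, 291 and 317 CPM in controls and 255, 250 and 253 CPM in mutants, with a log2 fold change of -0.22 (SE 0.08, adjusted p = 0.417 from edgeR). Each of the 3 had all mutants below all controls. Of the 91 tested genes of the list, 9 did so and 8 had all mutants above all controls. Of all tested genes, 7.88% did so in each direction. The genotypes overlapped for *Rab3gap1*, *Rab3gap2*, *Rab3ip*, *Sytl3* and *Sytl5* of the same list, and *Rab3il1* had all mutants above all controls.

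*Sytl2*, another Rab27 effector, lay on the opposite side, at 8.64, 11.1 and 9.83 CPM in controls and 15.1, 22.2 and 17.3 CPM in mutants. Its log2 fold change was 0.89 (SE 0.17, adjusted p = 0.0879 from edgeR's quasi-likelihood test and 0.00415 from DESeq2). *Rab27a* was at 30.4, 24.4 and 27.5 CPM in controls and 27.4, 24.3 and 23.2 CPM in mutants, so the granule GTPase with the lower count showed no gap between genotypes. *Sv2c*, the member of the SV2 glycoprotein family that the rule leaves out, was at 125, 146 and 86.3 CPM in controls and 64.1, 46.0 and 58.8 CPM in mutants (log2 fold change -1.08, adjusted p = 0.149 from edgeR's quasi-likelihood test and 2.87e-06 from DESeq2). The study itself reports *Sv2c* among the genes significantly lowered in these mutants.

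**Figure D3:**
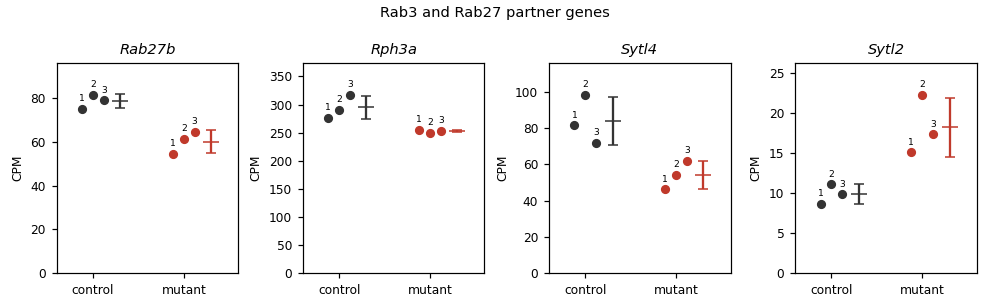
CPM of *Rab27b*, *Rph3a*, *Sytl4* and *Sytl2* in each female, numbered by replicate, with the mean and SD of each genotype beside the points. The mutants lie below the controls for *Rab27b*, *Rph3a* and *Sytl4* and above them for *Sytl2*.

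Synaptotagmins are vesicle proteins with paired C2 domains. In the 8 that bind calcium (*Syt1*, *Syt2*, *Syt3*, *Syt5*, *Syt6*, *Syt7*, *Syt9* and *Syt10*), log2 fold changes ran from -0.39 to 0.15, and 1 had an unadjusted p under 0.05. *Syt5*, found on dense-core vesicles as well as synaptic vesicles, was at 136, 162 and 161 CPM in controls and 112, 132 and 140 CPM in mutants. The highest mutant lay above the lowest control, and the log2 fold change was -0.25 (SE 0.11, adjusted p = 0.514 from edgeR's quasi-likelihood test). *Syt6* had the lowest fold of this group without passing at either threshold, at 50.4, 77.0 and 60.7 CPM in controls and 38.3, 48.4 and 56.4 CPM in mutants (log2 fold change -0.39, SE 0.18).

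*Syt1*, the calcium sensor of fast transmitter release, was at 462, 575 and 615 CPM in controls and 445, 590 and 573 CPM in mutants. *Syt7*, a slower sensor of high calcium affinity, was at 45.1, 62.1 and 52.1 CPM in controls and 49.3, 68.2 and 59.5 CPM in mutants. The genotypes overlapped for both. *Syt2*, the fast sensor of hindbrain and spinal synapses, stayed under 4 CPM in each sample, and per kilobase *Syt1* exceeded it by between 6.95 and 7.95 on the log2 scale.

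Of the 9 synaptotagmins with weak or no calcium binding, 8 were tested. *Syt17*, a synaptotagmin-like protein of the Golgi and of vesicle traffic, was at 29.5, 25.4 and 28.0 CPM in controls and 21.9, 19.0 and 18.3 CPM in mutants. Every mutant was below every control, with a mutant mean of 71.5% of the control mean and a log2 fold change of -0.49 (SE 0.12). Its adjusted p was 0.191 with edgeR's quasi-likelihood test and 0.0752 with DESeq2, and its log2 fold change stayed between -0.56 and -0.44 when each sample was left out.

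*Syt15* was at 3.08, 1.11 and 2.58 CPM in controls and 6.44, 3.46 and 3.33 CPM in mutants, so that all mutants were above all controls at a low level (log2 fold change 0.96, SE 0.41, adjusted p = 0.532 by edgeR's quasi-likelihood test). *Syt4* and *Syt11*, related proteins of Golgi-derived and endosomal vesicles, were among the most abundant members, with mean levels of 117 and 102 CPM per kilobase. *Syt4* was at 473, 493 and 449 CPM in controls and 461, 412 and 453 CPM in mutants, and *Syt11* at 512, 601 and 499 CPM and at 490, 532 and 561 CPM. The genotypes overlapped for both, as they did for *Syt12*, *Syt13*, *Syt14* and *Syt16*. *Syt8* had no count in 5 samples and 3 counts in mutant replicate 3.

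The integral and peripheral vesicle proteins showed no gap between genotypes. *Syp*, synaptophysin, was at 513, 724 and 495 CPM in controls and 446, 543 and 501 CPM in mutants, with control replicate 2 apart from the other 5 samples. The log2 fold change was -0.22 (SE 0.15, adjusted p = 0.736 by edgeR's quasi-likelihood test), and -0.021 without that sample. *Syn1*, the synapsin that tethers vesicles to actin in the reserve pool, was at 410, 482 and 597 CPM in controls and 415, 555 and 534 CPM in mutants. *Syn2*, *Syn3*, *Sv2a* and *Sv2b* overlapped as well, and none of the 6 had an unadjusted p under 0.05. The per-kilobase log2 ratio of *Sv2a* to *Sv2b* was between 1.10 and 1.44 in controls and between 0.90 and 1.42 in mutants.

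Among the 9 SNAREs of the plasma membrane, 7 were tested. *Snap25*, the SNARE of the presynaptic plasma membrane, was the highest member per kilobase of exon at 453 CPM. It was at 2402, 3092 and 3033 CPM in controls and 2688, 3849 and 3388 CPM in mutants, with a log2 fold change of 0.22 (SE 0.15, adjusted p = 0.723 by edgeR's quasi-likelihood test). It was 0.11 without control replicate 1, 0.35 without mutant replicate 1 and 0.094 without mutant replicate 2. The genotypes overlapped, and replicate 1 was the lowest sample of each. *Stx1a*, a syntaxin of the nerve terminal, was at 10.5, 12.4 and 10.5 CPM in controls and 9.32, 15.1 and 14.3 CPM in mutants.

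*Stx3*, the syntaxin of apical membranes and ribbon synapses, was at 56.7, 49.4 and 49.9 CPM in controls and 48.4, 38.3 and 37.7 CPM in mutants. The highest mutant fell just under the lowest control, with a log2 fold change of -0.33 (SE 0.12, adjusted p = 0.422 by edgeR's quasi-likelihood test). *Snap23*, the broadly expressed relative of *Snap25*, was at 64.6, 51.5 and 58.6 CPM in controls and 79.0, 70.3 and 68.0 CPM in mutants. All mutants were above all controls, and the log2 fold change was 0.31 (SE 0.11, adjusted p = 0.391 by edgeR's quasi-likelihood test). *Stx4a*, the broadly expressed plasma membrane syntaxin that pairs with SNAP23, was at 81.7, 84.3 and 74.5 CPM in controls and 90.3, 88.7 and 79.1 CPM in mutants, which overlapped.

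All 7 vesicle SNAREs were tested, and none passed the adjusted threshold. *Vamp2*, the main VAMP of synaptic vesicles, was at 418, 512 and 642 CPM in controls and 415, 526 and 456 CPM in mutants, with a log2 fold change of -0.17 (SE 0.16) that became 0.0025 without control replicate 3. *Vamp1*, the second synaptic isoform, was at 26.4, 36.4 and 27.3 CPM in controls and 31.8, 40.8 and 34.6 CPM in mutants (log2 fold change 0.25, SE 0.15, adjusted p = 0.664 by edgeR's quasi-likelihood test). Their per-kilobase log2 ratio, *Vamp1* to *Vamp2*, was -5.18, -5.02 and -5.76 in controls and -4.91, -4.89 and -4.92 in mutants. It was the only 1 of 12 isoform ratios in which the genotypes did not overlap, with a mean difference of 0.41. The difference was 0.19 without control replicate 3 and 0.57 without control replicate 2 when the mean of the remaining samples was taken. No test was made of it. The ratios were looked at in both directions. Of single tested genes, 7.88% had all mutants above all controls and 7.88% had all mutants below.

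*Vamp5*, a VAMP of muscle and endothelial membranes, and *Vamp8*, the endobrevin of late endosomes and of regulated secretion in non-neuronal cells, are neighbours on the minus strand of chromosome 6 (NCBIM37 positions 72318043 to 72330462 and 72335217 to 72340697). *Vamp5* was at 2.21, 1.63 and 2.08 CPM in controls and 2.97, 4.21 and 3.06 CPM in mutants, with no overlap and a log2 fold change of 0.80 (SE 0.28, adjusted p = 0.409 by edgeR's quasi-likelihood test). *Vamp8* was at 6.03, 3.78 and 3.66 CPM in controls and 5.36, 8.04 and 7.99 CPM in mutants, where mutant replicate 1 lay below control replicate 1 (log2 fold change 0.67, SE 0.26, adjusted p = 0.469). *Vamp3* and *Vamp4*, of endosomal and Golgi membranes, overlapped between genotypes at 61.1 to 70.7 CPM and 131 to 171 CPM. *Vamp7* was at 26.9, 22.3 and 23.2 CPM in controls and 21.3, 21.0 and 21.7 CPM in mutants, all mutants just below all controls (log2 fold change -0.18, SE 0.11, adjusted p = 0.695 by edgeR's quasi-likelihood test).

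Marker levels of some other cell types also stood apart between genotypes. Of 10 microglia markers, 6 had an unadjusted p under 0.05 and were higher in mutants, 2 of 10 passed with DESeq2, and their sum was between 298 and 307 CPM in controls and between 378 and 406 CPM in mutants. The oligodendrocyte markers, given above, were higher in all mutants than in any control. Endothelial markers summed to between 84.5 and 154 CPM in controls and between 130 and 156 CPM in mutants, and 1 of 6 was higher at an unadjusted p under 0.05. No listed marker was at 0 in all samples. Their part in the values of *Snap23*, *Vamp5*, *Vamp8* and *Syt15* was not tested.

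**Figure D4:**
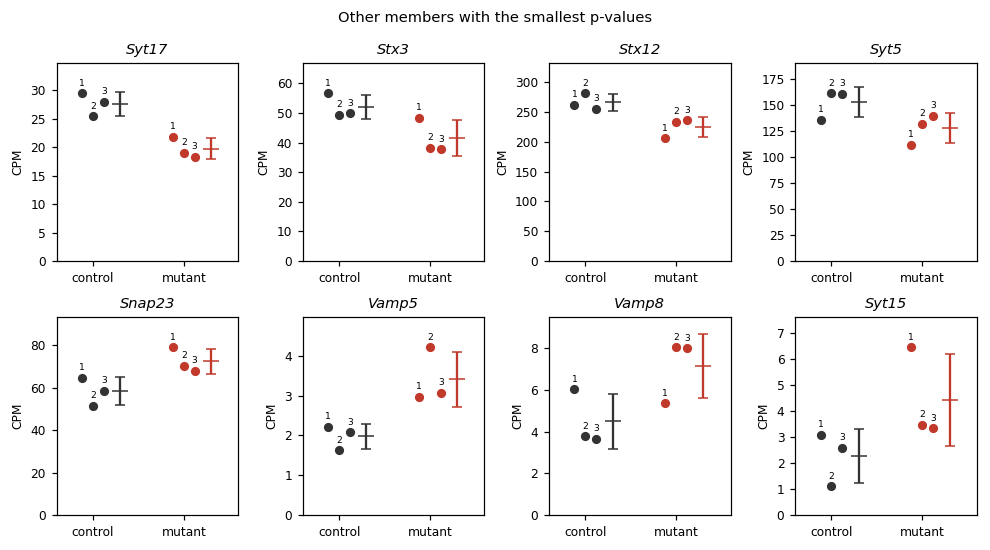
CPM in each female, numbered by replicate, with the mean and SD of each genotype, for the 8 members with the smallest unadjusted p-values after *Rab3b* and *Rab3c*. The upper row (*Syt17*, *Stx3*, *Stx12*, *Syt5*) is lower on average in mutants and the lower row (*Snap23*, *Vamp5*, *Vamp8*, *Syt15*) higher, with overlap between genotypes for *Syt5* and *Vamp8*.

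Among the 10 SNAREs of endosomes, the Golgi and the secretory pathway, *Stx12* was the highest per kilobase, at 77.1 CPM, followed by *Snap47* at 72.6 CPM. *Stx12*, a syntaxin of recycling endosomes, was at 262, 282 and 255 CPM in controls and 206, 234 and 236 CPM in mutants. All mutants were below all controls, with a log2 fold change of -0.24 (SE 0.08, adjusted p = 0.415 by edgeR's quasi-likelihood test). The other 9, *Stx5a*, *Stx6*, *Stx7*, *Stx8*, *Stx16*, *Stx17*, *Stx18*, *Snap29* and *Snap47*, had no unadjusted p under 0.05 and overlapped between genotypes. *Stx7* and *Stx16* were the most even of them, between 130 and 146 CPM and between 109 and 121 CPM over all 6 females.

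The tested syntaxin-binding proteins, complexins, active zone scaffolds and priming factors overlapped between genotypes except for *Unc13d*. *Stxbp5*, tomosyn, which holds syntaxin in inactive complexes, was at 263, 308 and 287 CPM in controls and 236, 263 and 262 CPM in mutants, with the highest mutant just above the lowest control (log2 fold change -0.17, SE 0.09, adjusted p = 0.603 by edgeR's quasi-likelihood test). *Stxbp6*, amisyn, was at 37.2, 39.3 and 47.3 CPM in controls and 43.9, 72.9 and 47.8 CPM in mutants, where mutant replicate 2 stood far above the rest.

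The complexins, which bind assembled SNAREs, were carried by *Cplx2* and *Cplx1*. *Cplx2* was at 220, 305 and 330 CPM in controls and 244, 284 and 233 CPM in mutants, and *Cplx1* at 46.7, 52.2 and 49.8 CPM and at 56.3, 81.5 and 47.6 CPM. Mutant replicate 2 was again the highest sample for *Cplx1*, whose log2 fold change of 0.32 (SE 0.18) ranged from 0.064 to 0.48 as each sample was left out. *Cplx3*, the complexin of retinal ribbon synapses, was under 1 CPM in all samples.

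*Pclo* and *Bsn*, the giant scaffolds piccolo and bassoon, had their lowest values in replicate 1 of both genotypes. *Pclo* was at 827, 1162 and 1499 CPM in controls and 891, 984 and 1155 CPM in mutants (log2 fold change -0.20, SE 0.21), and without control replicate 3 the log2 fold change was 0.023. *Bsn* was at 208, 293 and 275 CPM in controls and 204, 235 and 220 CPM in mutants (log2 fold change -0.24, SE 0.12, adjusted p = 0.624 by edgeR's quasi-likelihood test). The RIM scaffolds that bind Rab3 differed less, with *Rims2* at 228, 218 and 229 CPM in controls and 205, 205 and 218 CPM in mutants and *Rims1* between 40.0 and 47.9 CPM over all samples. *Rims2* exceeded *Rims1* per kilobase in each female, with a log2 ratio of *Rims1* to *Rims2* between -2.89 and -2.61.

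Of the Munc13 priming factors, *Unc13c* was at 73.6, 99.8 and 83.1 CPM in controls and 69.2, 61.5 and 81.1 CPM in mutants (log2 fold change -0.28, SE 0.13, adjusted p = 0.596 by edgeR's quasi-likelihood test). *Unc13a*, the isoform of most excitatory synapses, was at 96.2, 115 and 84.3 CPM in controls and 108, 108 and 85.5 CPM in mutants, enclosed by the controls. The mutants were also enclosed by the controls for *Unc13b*, at 62.0, 39.7 and 53.9 CPM in controls and 59.9, 53.3 and 45.6 CPM in mutants. *Unc13d*, the priming factor of blood cell granules, was at 0.13, 0.47 and 0.72 CPM in controls and 0.91, 1.01 and 0.73 CPM in mutants. It passed the filter on low counts through the mutants alone, so its lack of overlap is partly set by the filter.

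In all, 6 of the 68 tested members had every mutant below every control (8.82%, against 7.88% of all tested genes) and 4 had every mutant above (5.88%, against 7.88%). The first are *Rab3b*, *Rab3c*, *Syt17*, *Stx3*, *Stx12* and *Vamp7*, and the second *Snap23*, *Vamp5*, *Syt15* and *Unc13d*. The place of *Unc13d* among the second is partly set by the filter on low counts. Both shares, 8.82% and 5.88%, are near that of all tested genes. An exact two-sided permutation test of 3 females against 3 cannot give a p under 0.1. The 5 members left out by the filter were *Rims4*, *Stx11*, *Stx19*, *Cplx4* and *Syt8*, with 19 counts or fewer in each sample.

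Differences between females of 1 genotype were often as large as those between genotypes. The median coefficient of variation within genotypes was 13.1% for the members and 12.4% for all tested genes. In 23 of the 68 members, replicate 1 was the lowest sample in both genotypes (33.8%, against 17.8% of all tested genes). Among these 23 are *Snap25*, *Stx1a*, *Vamp1*, *Vamp2*, *Syn1*, *Syn2*, *Sv2b*, *Rab3a*, *Syt1*, *Syt5*, *Bsn*, *Pclo* and *Rims1*. *Syp*, *Sv2a*, *Syn3*, *Cplx1*, *Cplx2*, *Unc13a*, *Rab3b*, *Rab3c* and *Syt17* are not among them.

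Summed pan-neuronal markers were at 2722, 3467 and 2949 CPM in controls and 2665, 3136 and 3393 CPM in mutants. Replicate 1 was thus the lowest in both genotypes there too. It was also the lowest for the VMH markers, at 174 and 195 CPM, and for the astrocyte markers, at 4049 and 4393 CPM. The other marker lists did not show this, and the ARC neuron markers were highest in mutant replicate 1, at 1356 CPM. The part of these markers in the values of replicate 1 was not tested. Scaled to the pan-neuronal markers instead of the library, the median log2 fold change of all tested genes shifted to -0.094 and that of the members to -0.15. *Rab3c* then had a log2 fold change of -0.63 and an adjusted p of 0.0427 (edgeR's quasi-likelihood test), and no other member passed.

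**Figure D5:**
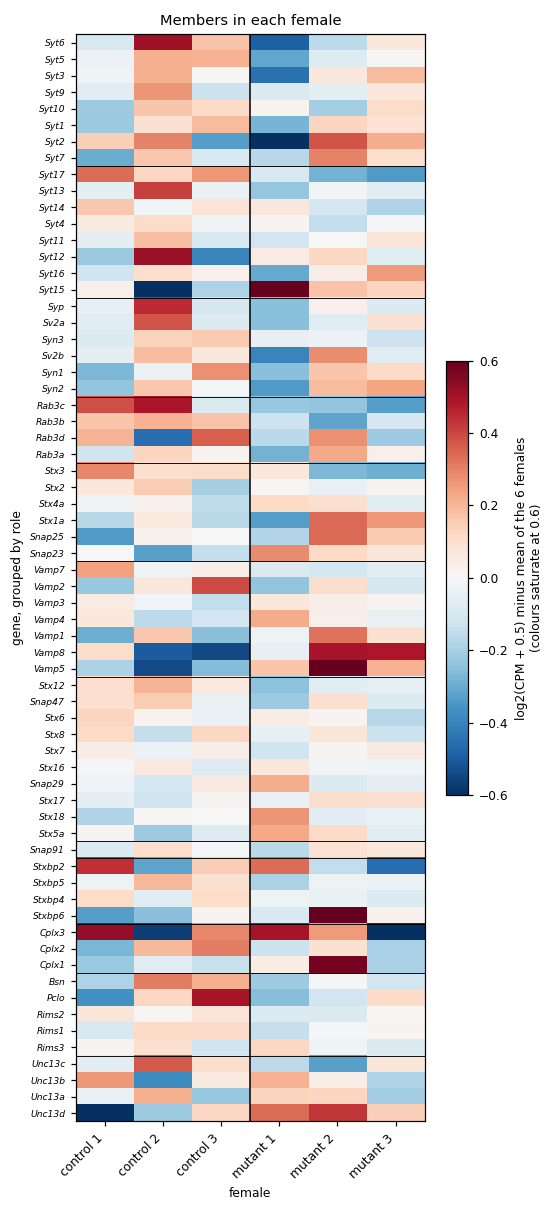
Level of 66 of the tested members in each female, as log2(CPM + 0.5) minus the mean of the 6 females, grouped by role (horizontal lines) with controls left and mutants right of the vertical line. *Rab3b*, *Rab3c* and *Syt17*, lower in mutants, and *Snap23*, higher in mutants, are among the members that separate the genotypes. Many members are blue in replicate 1 of both, among them *Snap25*, *Stx1a*, *Pclo* and *Bsn*.

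The members were abundant as a group in this tissue. They took between 1.30% and 1.53% of all counts, and 24 of the 73 were above 100 CPM in all 6 females. Of the 72 with an exon length, 51 were above the median of the tested genes (5.77 CPM per kilobase) and 20 were in the highest 10% (34.3 CPM per kilobase or more). Below *Snap25*, the highest levels per kilobase given here were those of *Rab3c* at 171, *Syn1* at 151, *Vamp2* at 130, *Syt4* at 117, *Syp* at 103 and *Syt11* at 102 CPM. *Snap25* lay above *Rab3c* in each female by this measure, whereas from *Rab3c* on the ranges of each neighbouring pair in this order overlapped.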

How the data were processed

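The authors amplified total RNA from microdissected ARC, mapped single-end reads with TopHat2 2.1.0 and counted them on genes with HTSeq 0.6, as named in the submitters' processing notes and the methods. The deposited counts are whole numbers per gene symbol, without normalization. The notes name the build mm9, and the methods give a label that joins the names of different builds. The counts carry no coordinates, and strand and the handling of reads shared by family members or overlapping genes are not given in the sources used here. Positions and exon lengths come from the GENCODE annotation of NCBIM37, matched by symbol for 72 of the 73 members, and promoters from RefSeq for GRCm38.p6.

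Samples were grouped by the genotype in their labels, 3 control and 3 mutant. The study calls the controls of this cross littermates elsewhere, the labels tie no sample to a litter, and p-values measure the spread between these samples only. Counts were tested with edgeR 4.0.16 in R 4.3.3 (quasi-likelihood test with robust dispersions, TMM scaling, default filter on low counts, Benjamini-Hochberg adjustment over 15236 genes, threshold 0.05). DESeq2 1.42.0, the study's tool in another version, and limma 3.58.1 were alternatives. CPM per kilobase divides CPM by the length of the union of exons. No other columns of per-sample values were used. The fits were tested on simulated data. The floor of 3 counts covers counting error only, since PCR copies cannot be told from separate molecules. A chi-square test between samples gave between 6.60 and 29.6 per degree of freedom, so no pair was as close as counting noise allows.

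Members are named if they were past the threshold with edgeR, DESeq2 or the replicate block, if they were among the 2 highest per kilobase of their role or the 10 smallest p-values, if they belong to 1 of 12 isoform pairs, or if they failed the filter. Others are named as examples of their role. The values of 2 members are not reported here, although the counts include them. The members, role groups, partner list and marker lists (pan-neuronal, ARC, VMH, oligodendrocyte, astrocyte, microglia, endothelium, pituitary) were chosen with earlier results of these data known. Astrocyte markers summed to between 4049 and 6865 CPM in controls and between 4393 and 6370 CPM in mutants.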

Additional observations from a re-analysis of the deposited data

How the results depend on the processing

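The direction of the folds given for *Rab3b*, *Rab3c*, *Syt17*, *Stx3*, *Stx12*, *Snap23*, *Vamp5*, *Vamp8*, *Syt5* and *Syt15* was kept under RLE normalization, a filter that asks for 1 count in any sample, a filter of 10 counts in every sample, DESeq2, the replicate block, limma voom, scaling to pan-neuronal markers and each sample left out in turn. Over the first 7 of these, adjusted p ran from 0.0374 to 0.639 for *Rab3b* and from 0.00764 to 0.266 for *Rab3c*. The number of members past the threshold, 0 with edgeR, was 2 with DESeq2 and 1 with scaling to pan-neuronal markers, and 0 to 1 with each sample left out, the 1 being *Rab3c* without control replicate 3. The number of partner genes past it, 0 with edgeR, was 3 with DESeq2 (*Rab27b*, *Sytl4* and *Sytl2*), and 1 with the filter of 1 count in any sample and 1 with the replicate block, *Sytl2* in both. All genes past it were 18 with edgeR, 191 with DESeq2, 123 with the replicate block, 106 with the filter of 1 count, 43 with scaling to pan-neuronal markers and between 7 and 46 with each sample left out.

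Members with an unadjusted p under 0.05 were 10 with edgeR's quasi-likelihood test, 17 with the replicate block, and between 6 (without control replicate 2) and 17 (without control replicate 1) with each sample left out. Members whose genotypes did not overlap were 10 of 68, between 15 and 26 with each sample left out, and 32 without replicate 1 of both genotypes, an alternative added after seeing the data. The counts without overlap rise by construction with fewer samples, and with samples left out they were not set against all tested genes. The median log2 fold change of the members lay between -0.097 and -0.0057 with each sample left out and was -0.146 with scaling to pan-neuronal markers, beside -0.094 for all genes. Folds near 0 turned: *Pclo* ranged from -0.40 to 0.023, *Snap91* from -0.054 to 0.068 and *Vamp2* from -0.31 to 0.0025 with each sample left out, and *Snap91* was at 0.026 without replicate 1 of both genotypes. Other folds that moved by over 1.5 times with a sample left out were those of *Bsn* (-0.37 to -0.14), *Cplx1* (0.064 to 0.48), *Syt5* (-0.33 to -0.17), *Syt6* (-0.53 to -0.22), *Syt15* (0.60 to 1.26), *Unc13c* (-0.39 to -0.15), *Vamp1* (0.14 to 0.42), *Vamp7* (-0.24 to -0.096), *Syp* (-0.32 to -0.021) and *Snap25* (0.094 to 0.35). The cause was not tested.

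Whether samples of the same replicate number belong together cannot be told from the labels or from these values. Deviations of same-numbered samples from their genotype means correlated at 0.31, 0.049 and 0.019 over the tested genes. The value for replicate 1 was the highest between any control and any mutant. Control replicate 2 correlated best with mutant replicate 3, at 0.22. With the replicate block, the adjusted p of *Rab3c* was 0.054 and that of *Rab3b* 0.090. The totals limit what can be said of *Syt8*, *Rims4*, *Stx11*, *Stx19*, *Cplx4*, *Cplx3* and *Unc13d*, which lay near the floor of 3 counts.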
